A study of Homo sapiens with 2 samples.

Results

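The HSP70 and HSP90 chaperones and the co-chaperones that serve them were examined in CL1-5 cells, a highly invasive human lung adenocarcinoma line, treated with a cytotoxic compound. The set was a list of 42 genes, and its members were all probe sets that the platform annotation assigns to exactly 1 gene of that list. Of the 42 genes, 37 had such a probe set, 94 probe sets in all, among 19775 genes named in this way on the array. The list was made with earlier results of these arrays known.

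Total RNA was labelled with biotin and hybridised to Affymetrix Human Genome U133 Plus 2.0 arrays. The treated culture received 0.11 µM analogue 3, a derivative of the plant compound desmosdumotin C that carries iodo, propyl and methoxy groups per the labels, and the control culture received the solvent DMSO, each for 24 h. Both cultures were the same line in the same medium with fetal bovine serum. With only 1 array for each culture, differences carry no test, no p-value and no replicate check.

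HSP70 proteins bind unfolded stretches of other proteins and release them in a cycle driven by ATP, which DNAJ proteins start and nucleotide exchange factors complete. HSP90 acts later on partly folded clients, many of them kinases and steroid receptors, and its cycle is steered by co-chaperones that bind in turn. A part of these genes is switched on by heat and other protein-damaging stress through heat shock factor HSF1, while other members are made steadily in unstressed cells. Tumour cells commonly hold high levels of several of these chaperones.

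Intensities are multiples of the array median, on a linear scale. A gene was counted as measured where its brightest probe set reached a floor of 8 (log2 3) on at least 1 array. Values under the floor were raised to it before the log2 difference, analogue 3 minus DMSO, was taken, and the call was a difference of at least 2-fold. Of the 37 genes, 34 were measured, and all 34 were above the floor on both arrays. The spread between probe sets of a gene gives a measure of technical error: over 2874 genes, the SD of 1 probe set was 0.23 on the log2 scale. It leaves out the error between cultures and RNA preparations.

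Chaperone transcripts were higher with analogue 3. Of the 34 measured members, 10 passed 2-fold upward and none passed it downward. Over all 8523 measured genes, 3.74% were higher by this measure and 3.92% were lower. The 10 genes were FKBP4, CHORDC1, HSPH1, HSPA2, HSPE1, BAG2, HSPA4L, BAG3, STIP1 and CACYBP. The median log2 difference of the members was 0.57, or 1.48-fold, with quartiles of 0.03 and 1.02, against a median of -0.05 and quartiles of -0.36 and 0.24 over all measured genes. Above 0 lay 27 of the 34 members, against 44.5% of all measured genes. At a threshold of 1.5-fold, 16 members were higher and 2 were lower, against 9.62% and 12.9% of all genes. No member reached 3-fold. The arrays measure a mixture of all cells of a culture, so a difference in every cell and a difference in the share of cells cannot be told apart.

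**Figure D1:**
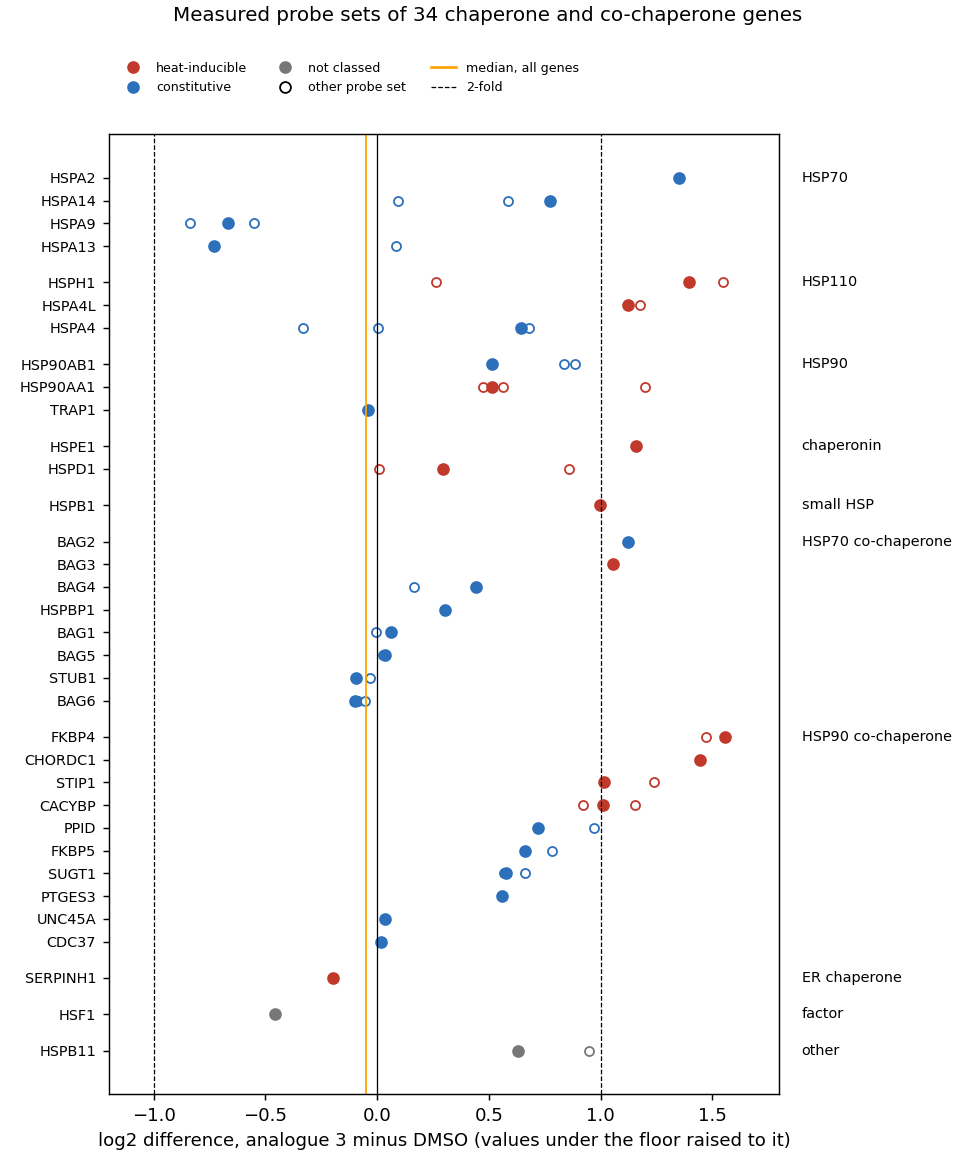
Log2 difference between the arrays for every measured probe set of the 34 measured members, by role. Filled points are the brightest probe set of a gene, open points its others, red marks heat-inducible and blue constitutive members, the orange line is the median of all genes and dashed lines mark 2-fold. The HSP90 co-chaperones among the members all lie above 0, 2 of them close to it, and HSPA9, HSPA13 and HSF1 lie furthest below it.

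Most members had more than 1 measured probe set, which gives a check within each array. Over the 68 measured member probe sets, 16 passed 2-fold upward and none downward, against 3.53% in each direction over all 13496 measured single-gene probe sets. Of 21 members with at least 2 measured probe sets, 18 had all of them on the same side of 0. The 18 include genes close to 0, such as BAG5 at 0.03 and 0.04 and STUB1 between -0.09 and -0.03. No share over all genes is given for this count, so it is no contrast with them. The range between the probe sets of a gene had a median of 0.25 on the log2 scale and reached 1.29 in HSPH1. The exceptions in sign were HSPA4, HSPA13 and BAG1.

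Of the 18 members classed as heat-inducible from textbook knowledge of HSF1 targets, 12 were measured and 8 of these were at least 2-fold higher. Of the 21 classed as constitutive, 20 were measured and 2, HSPA2 and BAG2, were at least 2-fold higher. The share over all measured genes was 3.74%. The median log2 difference was 1.04 over the heat-inducible members and 0.37 over the constitutive ones. The gap between the medians was 0.66, which was not tested. The classes were set with earlier results of these arrays known, so the split is not independent of them. The gap was 0.49 when only HSPH1, HSP90AA1, HSPB1 and BAG3 stood for the measured heat-inducible class and the rest of that class was counted as constitutive. Without probe sets whose names end in _s_at or _x_at, which may share sequence with other transcripts, the order turned: only 4 heat-inducible members remained measured, with a median of 0.37, against 0.44 over 11 constitutive members. In that setting HSPH1 and HSPD1 were represented by dim probe sets, at 9.59 against 3.59 and at 8.04 against 4.46.

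**Figure D2:**
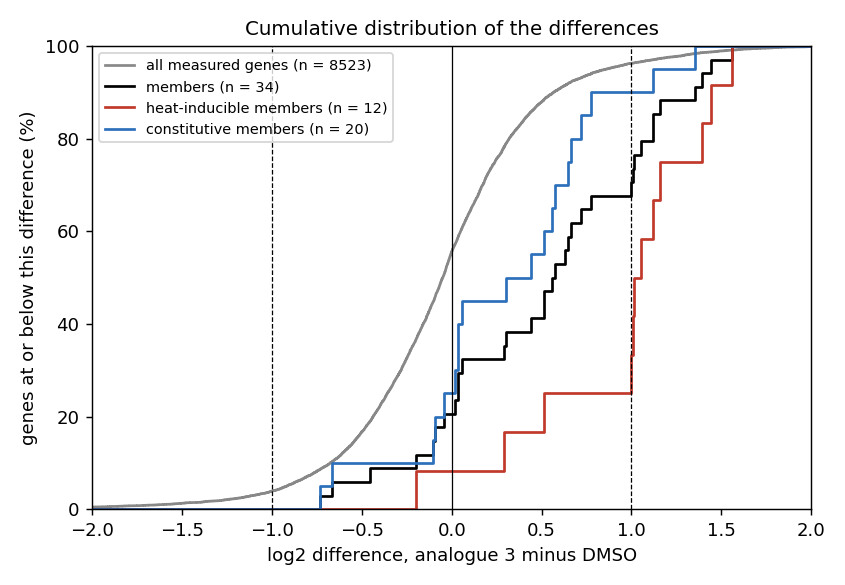
Cumulative share of genes (%) at or below a given log2 difference, analogue 3 minus DMSO, for all 8523 measured genes, the 34 members, the 12 heat-inducible members and the 20 constitutive members. The heat-inducible curve lies furthest to the right, with a median of 1.04, and the curve of all genes has its median at -0.05.

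HSF1 binds heat shock elements, which are repeats of the unit GAA in alternating orientation. The 250 bases before each RefSeq start site (GRCh38.p14) were searched for 3 such units in a row, GAANNTTCNNGAA or TTCNNGAANNTTC. These letters are each other's reverse complement, so both strands were covered, and either pattern holds the 2-unit patterns GAANNTTC and TTCNNGAA. Of the 42 genes, 36 had a promoter window in the table. HSPA14, CRYAB, BAG4, STUB1, FKBP4 and HSF1 had none and were not searched. At least 1 window held the 3-unit pattern in 7 of the 36 (19.4%), against 0.557% of all 27305 genes of the table. The 7 were HSPA6, HSPA8, HSP90AA1, HSP90AB1, HSPD1, CHORDC1 and SERPINH1. The 2-unit pattern was present in 13 of the 36 (36.1%) against 14.0% of all genes, in 10 of 16 heat-inducible and 3 of 18 constitutive members. The heat-inducible class was itself drawn from knowledge of HSF1 targets, so counts of either pattern by class are not independent of the classing. The member list holds these known targets too, so its shares against all genes are not independent of how the list was made. The 5 measured genes with the 3-unit pattern are shown, because they include CHORDC1, which had one of the larger differences, and SERPINH1, which was not higher. Capitals mark the 3-unit matches, and each run is written 5′ to 3′ on the strand of the gene. They are chr11:90223050-90223299 on the minus strand for CHORDC1, chr14:102087045-102087294 on the minus strand for HSP90AA1 and chr11:75562003-75562252 on the plus strand for SERPINH1, each the whole stretch before a start site. For HSP90AB1, chr6:44247758-44247863 on the plus strand, and for HSPD1, chr2:197500048-197500090 on the minus strand, the match is shown with up to 20 bases on each side.
CHORDC1: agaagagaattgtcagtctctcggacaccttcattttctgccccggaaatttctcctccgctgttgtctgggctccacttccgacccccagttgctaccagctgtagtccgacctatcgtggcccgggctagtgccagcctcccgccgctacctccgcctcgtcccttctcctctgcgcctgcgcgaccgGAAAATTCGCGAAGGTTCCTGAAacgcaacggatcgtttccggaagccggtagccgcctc
HSP90AA1: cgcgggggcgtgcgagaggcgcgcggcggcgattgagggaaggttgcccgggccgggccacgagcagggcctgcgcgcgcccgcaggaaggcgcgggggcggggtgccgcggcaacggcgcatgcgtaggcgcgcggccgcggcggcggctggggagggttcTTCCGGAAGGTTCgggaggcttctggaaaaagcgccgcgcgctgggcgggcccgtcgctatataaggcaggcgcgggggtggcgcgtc
HSP90AB1: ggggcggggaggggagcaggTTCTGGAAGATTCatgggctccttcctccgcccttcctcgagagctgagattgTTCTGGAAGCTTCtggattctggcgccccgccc
HSPD1: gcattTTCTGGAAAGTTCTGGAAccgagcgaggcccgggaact
SERPINH1: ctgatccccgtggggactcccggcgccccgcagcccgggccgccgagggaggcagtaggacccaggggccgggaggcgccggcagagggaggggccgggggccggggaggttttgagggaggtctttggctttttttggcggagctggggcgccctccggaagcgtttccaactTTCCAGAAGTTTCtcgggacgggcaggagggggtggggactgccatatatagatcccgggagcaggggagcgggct

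In CHORDC1 the units overlap into a run of 23 bases that ends 38 bases before the start site. HSP90AB1 carries 2 separate matches before the most downstream of its 3 RefSeq start sites. The 3-unit pattern was present in 5 of 16 heat-inducible and 2 of 18 constitutive members. Among the members at least 2-fold higher, 1 of 9 with a window held the 3-unit pattern and 3 of 9 the 2-unit pattern, and among those under 2-fold it was 4 and 5 of 20. FKBP4, which had the largest difference, is not among the 9 because it had no window. The counts are small and were not tested. A match is a run of letters, not a measured site of binding, and these windows leave out elements further away.

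The HSP110 proteins HSPH1, HSPA4 and HSPA4L, which exchange nucleotide on HSP70 and help it to take aggregates apart, were all higher. HSPH1 had an intensity of 277.7 with analogue 3 and 105.6 with DMSO in its brightest probe set, a 2.63-fold difference. Its second probe set read 103.9 against 35.5, or 2.93-fold. Its dimmest was under the floor with DMSO, at 9.59 against 3.59, where the fold of at least 1.20 is only a bound. HSPA4L, a heat-inducible relative, read 29.3 against 13.5, or 2.17-fold. Its other probe set, at 18.1 against 7.31, was at least 2.26-fold higher. HSPA4, the steadily made form, was 1.56-fold higher at 577.9 against 369.3, and 1.60-fold in a second probe set. A dim probe set of HSPA4 ran the other way, at 8.60 against 10.8.

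Among the HSP70 proteins proper the direction was mixed. HSPA2, known mainly for its role in male germ cells, was 2.55-fold higher, at 31.3 with analogue 3 and 12.3 with DMSO in its only probe set. HSPA14, which works with a DNAJ partner at the ribosome, was 1.71-fold higher at 37.1 against 21.7. Its other probe sets had log2 differences of 0.59 and 0.09. HSPA9, the mitochondrial HSP70 that pulls imported proteins into the matrix, was lower, at 725.5 against 1151, or 1.59-fold. The remaining measured HSPA9 probe sets had log2 differences of -0.55 and -0.84, so all 3 lay below 0. HSPA13, an HSP70 of microsomes, was 1.66-fold lower at 123.8 against 205.5. Its second probe set differed by 0.09 on the log2 scale, at 45.4 against 42.7, so the gene has no settled direction. HSPA6, which is nearly silent without stress, did not reach the floor on either array, with 2.76 after analogue 3 and 1.44 after DMSO. The stress-inducible HSPA1A and HSPA1B are named together on their probe sets and HSPA8 shares its probe sets with small nucleolar RNA genes of its introns, so none of the 3 has a value here.

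Of the HSP90 proteins, the cytosolic pair was higher by less than 2-fold in the brightest probe sets, and the mitochondrial form differed little. HSP90AA1, the inducible form, read 2171 with analogue 3 and 1522 with DMSO, or 1.43-fold. Its probe sets disagreed in size: 3 of them had log2 differences between 0.47 and 0.56, and the fourth, at 725.0 against 315.8, was 2.30-fold higher. HSP90AB1, the constitutive form, was also 1.43-fold higher in its brightest probe set, at 1137 against 795.5. The other HSP90AB1 probe sets had log2 differences of 0.84 and 0.88. TRAP1, the HSP90 of mitochondria, read 61.8 against 63.7, with a log2 difference of -0.04. The inducible and the constitutive cytosolic form thus differed by the same amount in their brightest probe sets, with log2 differences of 0.51 and 0.52. Their dimmest probe sets, at 725.0 and 837.1 with analogue 3, had the largest differences, so the choice of the brightest gives a smaller value here. The highest intensities on the arrays were 3117 with analogue 3 and 3078 with DMSO. An effect of the level on the size of the difference was not tested.

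The HSP90 co-chaperones all pointed the same way, with 10 of 10 measured genes above 0, 4 of them at least 2-fold higher, and a median log2 difference of 0.69. Over all measured genes 44.5% lay above 0 and 3.74% were at least 2-fold higher. Among the co-chaperones FKBP4, the immunophilin that links HSP90 to steroid receptors and dynein, had the largest difference of all members. It read 93.7 with analogue 3 and 31.8 with DMSO, or 2.94-fold. Its second measured probe set read 55.0 against 19.8, or 2.78-fold. FKBP5, a related immunophilin that is best known as a glucocorticoid-induced gene, was 1.58-fold higher at 72.7 against 46.0. CHORDC1, an HSP90 partner and heat shock gene whose promoter is printed above, was 2.72-fold higher at 250.9 against 92.1. STIP1, the adaptor that hands clients from HSP70 to HSP90, was 2.02-fold higher at 309.2 against 152.8, and 2.36-fold in its other probe set. CACYBP, which binds S100 proteins, was 2.01-fold higher at 817.4 against 406.0, with 2.22-fold and 1.89-fold in its other measured probe sets. STIP1 and CACYBP lie close to the threshold and were under it after removal of a loess trend and after quantile normalization.

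The other HSP90 co-chaperones had smaller differences. PPID, a cyclophilin found in steroid receptor complexes, read 260.3 against 157.9, or 1.65-fold, and 1.96-fold in a second probe set. SUGT1, which joins HSP90 to kinetochore assembly and immune receptors, was 1.49-fold higher at 486.2 against 326.0, with 1.48-fold and 1.58-fold in its other measured probe sets. PTGES3, the p23 protein that stabilises the closed form of HSP90, was 1.47-fold higher at 1285 against 871.6. CDC37, which brings kinases to HSP90, read 62.0 against 61.2, and UNC45A, a myosin chaperone, 8.90 against 8.70, next to the floor. Log2 differences of 0.02 for CDC37 and 0.03 for UNC45A are within the spread of 1 probe set. AHSA1, the activator of the HSP90 ATPase, was not analysed here.

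The HSP70 co-chaperones split into a pair that was higher and a larger group that differed little. BAG3, a stress-induced factor that steers HSP70 clients to autophagy, was 2.08-fold higher, at 137.9 with analogue 3 and 66.4 with DMSO. BAG2, which inhibits the ubiquitin ligase STUB1, was 2.18-fold higher at 132.8 against 61.0. BAG4, which silences death domain receptors, was 1.36-fold higher at 107.1 against 78.8, and the exchange factor HSPBP1 1.23-fold at 15.5 against 12.6. BAG1, at 34.4 against 33.0, and BAG5, at 27.5 against 26.8, had log2 differences of 0.06 and 0.04. BAG6, which guards newly made membrane proteins, was 165.4 against 177.4, and STUB1, the ligase that marks chaperone clients for the proteasome, 370.9 against 395.5. All 3 measured probe sets of BAG6, and all 3 of STUB1, lay between -0.10 and -0.03 on the log2 scale. The median over the 8 HSP70 co-chaperones was 0.18.

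Of the small heat shock proteins, which hold unfolding proteins in solution without ATP, HSPB1 was the only member measured. It read 431.6 with analogue 3 and 216.4 with DMSO, or 1.99-fold, just under the threshold, and passed it when the arrays were centred on their median difference. CRYAB and HSPB8 were under the floor on both arrays, with no value above 0.613, and the 6 other small heat shock protein genes on a separate list had no value above 0.764. HSPB11, listed under its current symbol IFT25, is a part of the ciliary transport machinery rather than a stress protein. It was 1.55-fold higher at 543.8 against 351.4, and 1.93-fold in its second measured probe set.

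**Figure D3:**
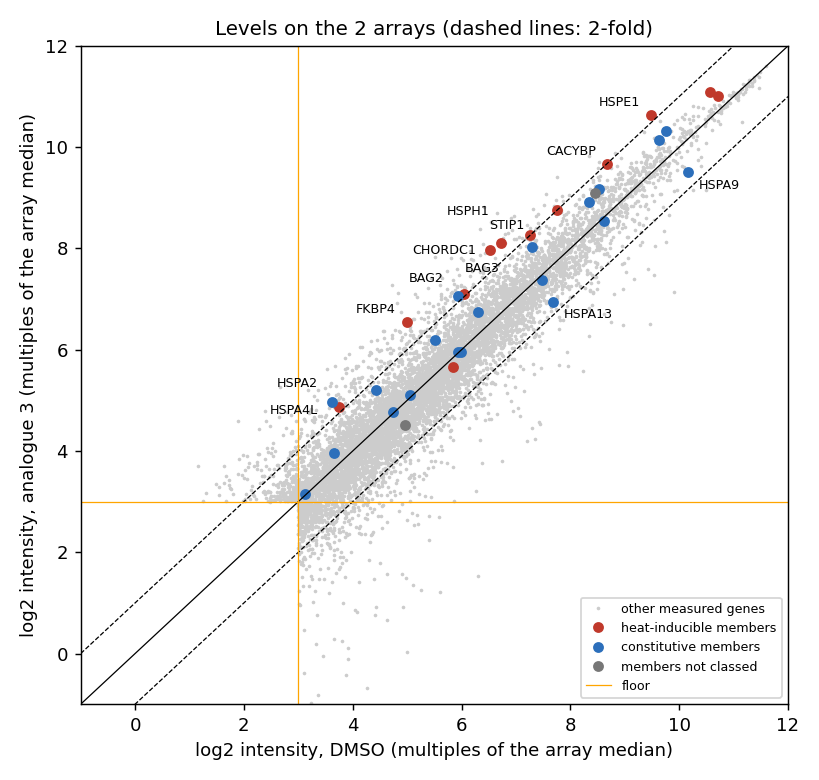
Log2 intensity of each measured gene with DMSO (horizontal) and analogue 3 (vertical), in multiples of the array median, with members coloured by class, dashed lines at 2-fold and the floor of log2 3 in orange. The 10 members at least 2-fold higher lie above the upper dashed line, and HSPA9 and HSPA13 lie below the diagonal.

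By compartment, the cytosolic members were higher and the organelle members were mixed. Of the 26 measured cytosolic members, 24 lay above 0, against 44.5% of all measured genes. At least 2-fold higher were 9 of the 26, against 3.74% of all genes, and the median log2 difference was 0.65. The 9 heat-inducible ones among the 26 had a median of 1.05, with 7 at least 2-fold higher, and the 17 constitutive ones a median of 0.52. The 4 mitochondrial members had a median of 0.13, between -0.67 in HSPA9 and 1.16 in HSPE1, so this median stands for genes that differ in direction. The gap between the cytosolic and mitochondrial medians was 0.53, and it was 0.28 with a floor of log2 7.

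The mitochondrial chaperonin consists of a barrel made by HSPD1 and a lid made by HSPE1, and their genes lie head to head on chromosome 2. HSPE1 was 2.23-fold higher, at 1597 with analogue 3 and 716.2 with DMSO, in its only probe set. HSPD1 read 2068 against 1687, or 1.23-fold, in its brightest probe set, and 672.8 against 371.0, or 1.81-fold, in the next. Its dimmest measured probe set, at 8.04 against 4.46, was at the floor. HSPE1 was thus ahead of HSPD1, but the size for HSPD1 depended on the probe set. By the brightest probe sets the log2 differences were 1.16 and 0.29, more than 2 SD of a probe set apart. With the next HSPD1 probe set they were 1.16 and 0.86, within 2 SD. RefSeq places the start of HSPE1 105 bases from the nearer start of HSPD1 and 539 bases from the farther. The heat shock pattern printed for HSPD1 lies between the farther and the nearer start of HSPD1, not in the 105 bases between the nearer one and HSPE1. It is 294 bases before the start of HSPE1 and so outside the window searched for that gene.

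Other mitochondrial chaperones and proteases, from a list outside the members, had a median below 0. Of 10 measured genes none was 2-fold different in either direction, against 3.74% higher and 3.92% lower over all genes. Above 0 lay 3 of the 10, against 44.5% of all genes, and the median log2 difference was -0.23. GRPEL1, the exchange factor of HSPA9, was 1.33-fold higher at 127.2 against 95.7. Its paralogue GRPEL2 was 1.74-fold lower at 52.7 against 91.7. HSCB, a DNAJ protein of iron-sulphur cluster assembly, and DNAJA3 were 1.19-fold and 1.17-fold lower.

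In the endoplasmic reticulum the direction was downward or unsettled. SERPINH1, a collagen chaperone that is also a heat shock gene, was the only measured heat-inducible member below 0, at 50.2 with analogue 3 and 57.6 with DMSO. Its log2 difference of -0.20 is within the spread of 1 probe set, and its promoter holds the 3-unit pattern printed above. All 4 genes of the separate list of reticulum HSP70 and HSP90 proteins and partners were below 0, with a median of -0.38. Over all measured genes 44.5% lay above 0, with a median of -0.05. Of the 4, 1 was at least 2-fold lower, against 3.92% of all genes. HSPA5, the reticulum HSP70, was 2.56-fold lower at 567.1 against 1449. HSP90B1, the reticulum HSP90, read 114.2 against 132.1, HYOU1 49.0 against 53.0, and SIL1 35.6 against 51.8. The log2 differences of -0.21 for HSP90B1 and -0.11 for HYOU1 are within the spread of 1 probe set.

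**Figure D4:**
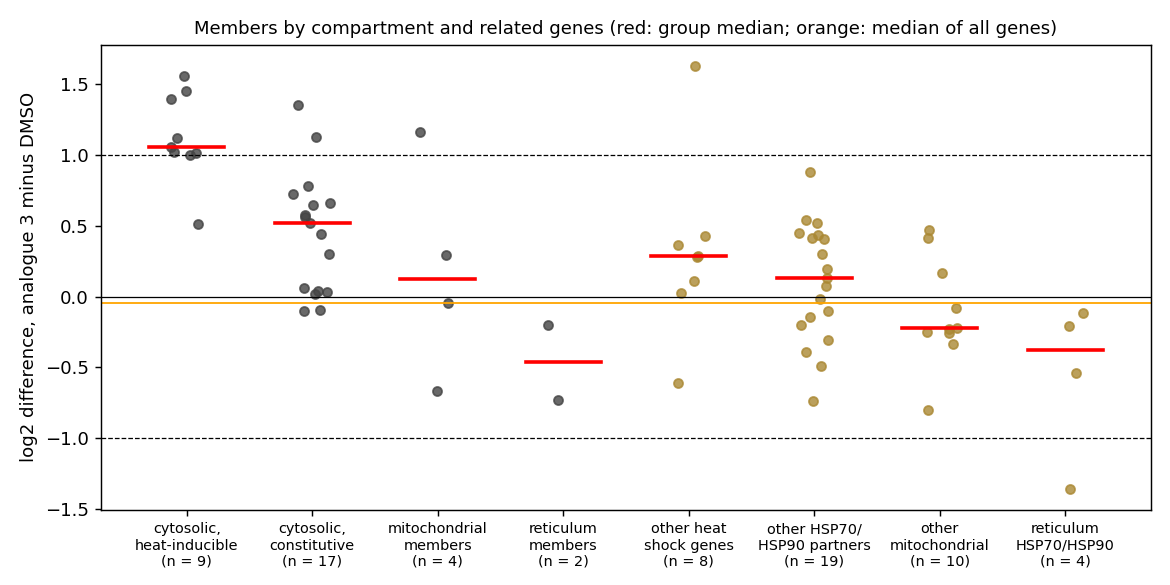
Log2 difference, analogue 3 minus DMSO, of each measured member by compartment and class (grey) and of related genes outside the members (brown), with group medians in red and the median of all genes in orange. The cytosolic heat-inducible members have a median of 1.05, while the reticulum members and the list of reticulum HSP70 and HSP90 genes have all their points below 0.

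Among the regulators and the remaining pathway genes, DNAJB1 was higher and most others differed by less than 1.5-fold. HSF1, the main heat shock factor, read 22.7 with analogue 3 and 31.2 with DMSO, a log2 difference of -0.46, and HSF2 was not analysed here. Of 8 other measured heat shock response genes, 1 passed 2-fold upward and none downward, against 3.74% and 3.92% of all measured genes. The median of the 8 was 0.28. The gene at least 2-fold higher was DNAJB1, the main DNAJ partner of inducible HSP70, at 84.4 against 27.3, or 3.09-fold. DNAJA1, a further DNAJ partner, was 1.35-fold higher at 903.0 against 670.4. ZFAND2A, a proteasome-binding gene induced by arsenite and heat, was 1.53-fold lower at 55.8 against 85.2, and IER5 and UBB had log2 differences of 0.11 and 0.02.

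Of 19 other measured partners of HSP70 and HSP90, none was 2-fold different, against 3.74% higher and 3.92% lower over all genes. Above 0 lay 11 of the 19, against 44.5% of all genes, and the median was 0.13. ST13, which holds HSP70 in its ADP-bound form, read 781.3 against 712.6. SGTA read 10.6 against 10.8, CDC37L1 11.9 against 16.7 and TTC4 32.6 against 31.1. Over the pooled lists of related genes outside the members, the median log2 difference was 0.02, and its sign turned to -0.011 with no floor.

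Array controls and cell markers were read on both arrays. The 18 hybridisation spikes had log2 differences between -0.14 and 0.17. For GAPDH the 3′ probe set read 1.18 times the 5′ one after analogue 3 and 1.21 times after DMSO, and for ACTB 10.0 and 11.8 times. Of the epithelial markers, KRT8 and KRT18 were measured, at 77.8 and 457.9 with analogue 3 and 42.3 and 460.8 with DMSO, while KRT7, KRT19 and EPCAM were under the floor on both arrays, EPCAM at 0.339 and 0.347. All 4 leukocyte markers with a probe set and all 5 fibroblast markers were under the floor on both arrays, with summed intensities of 2.55 and 8.09 with analogue 3 and 3.07 and 6.48 with DMSO. Of 5 endothelial markers, PECAM1 (15.7 against 11.4) and CLDN5 (11.7 against 35.1) were above it and VWF, CDH5 and KDR were not, and the sum was 30.7 with analogue 3 and 49.6 with DMSO. Their part in the chaperone differences was not tested.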

How the data were processed

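Each array contributes an intensity for 54675 probe sets. Per the submitters' processing notes the authors used GCRMA, a background correction by probe sequence with quantile normalization. Its version is not given in the sources used here. Those deposited intensity values are linear and both arrays have a median of 1, from which a scaling to the array median was inferred, since the labels do not mention it.

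GEO's platform annotation names 1 gene for 41097 probe sets and several for 1801, and it does not list 11777. HSPB11 was matched to IFT25 as a RefSeq synonym. Of the probe sets of a gene, the brightest by mean log2 intensity stood for it. The floor of log2 3 was reached by 26.0% of probe sets with analogue 3 and 26.8% with DMSO; a floor of log2 5 is an alternative. Members, classes and lists were chosen with earlier results of these data known. All members are named, and of the related lists the genes at least 2-fold different and otherwise up to 4 measured ones in list order. Alternatives were other floors, centring, loess (span 0.3), quantile normalization, other probe set choices, thresholds of 1.5-fold and 3-fold, and narrower or broader heat-inducible classes. The code of the comparison was checked on simulated arrays with known folds, which is no test of these differences. Calculations used Python 3.11.15, pandas 2.3.3 and statsmodels 0.14.6.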

Additional observations from a re-analysis of the deposited data

How the results depend on the processing

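The 10 members at least 2-fold higher were the same genes with each gene taken as its median probe set. They were also the same with no floor and with a floor of log2 1. There the values of the 34 measured members could not change, because all were above log2 3 on both arrays. A floor of log2 5 kept 8 of the 10 among 28 measured members, against 3.47% of all genes higher, and HSPA2 and HSPA4L were no longer measured. A floor of log2 7 kept 4 among 20 measured members, against 2.22% of all genes: FKBP4 also was not measured, and BAG2, BAG3 and CHORDC1 had smaller bounds. Without _s_at and _x_at probe sets 16 members were measured and 2 passed, HSPA4L and BAG2, against 3.81% of all genes. The heat-inducible median was then 0.37 and the mitochondrial median -0.043, over fewer genes. HSPB1 joined the called members under median centring. At 1.5-fold 16 members were higher and 2 lower, against 9.62% and 12.9% of all genes. At 3-fold 0 were higher, against 0.845% of all genes. Of 268 member values under alternatives, 257 stayed within the SD of 1 probe set and no called member changed sign. The 268 include the settings with no floor and with log2 1, where no value could change. They leave out members not measured in a setting, so the count does not measure stability. Over all 8523 measured genes, 319 were higher and 334 lower. The counts lower were 724 of 19775 with no floor and 586 of 11158 with log2 1. The counts higher and lower were 175 and 135 of 5050 with log2 5, and 43 and 38 of 1933 with log2 7. Over the 8523 they were 820 and 1099 at 1.5-fold and 72 and 90 at 3-fold. A change of floor also changes the number of genes measured. The median of the related lists, 0.02, was -0.011 with no floor and -0.018 with log2 1. The gap between heat-inducible and constitutive medians was 0.82 with the broad class. No paired analysis was possible because there was 1 array per group. The number of arrays limits the precision, and dim probe sets near the floor carry the largest spread, with an SD of 0.25 between log2 3 and 5 against 0.19 above.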
